A study of Mus musculus with 3 samples.

Results

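Hpgd-positive lung endothelium was followed through 3 single-cell RNA libraries of mouse tumour tissue as 435 barcodes of 33482. A barcode, the tag of 1 droplet and in most cases of 1 cell, was counted in when it held at least 200 genes, at most 20% mitochondrial UMIs (unique molecular identifiers, 1 per captured RNA molecule) and a UMI of at least 2 of the 5 endothelial genes Pecam1, Cdh5, Cldn5, Egfl7 and Tie1. It also had to hold no UMI of the leukocyte gene Ptprc and at most 2 of the epithelial keratins Krt8 and Krt18 together. Of the 995 endothelial barcodes found in this way, the 435 had at least 1 UMI of Hpgd, at most 1 of Car4 and Ednrb together and at most 1 of Esm1, Angpt2 and Pgf together. The counts of these 14 genes chose the barcodes, so they are described below without a test. The remaining endothelial barcodes were set beside them as 3 groups. In all, 311 met the same limits but had no Hpgd UMI (Hpgd-negative), 181 held at least 2 UMIs of Car4 and Ednrb, which mark the large capillary cells called aerocytes (Car4/Ednrb), and 68 held at least 2 UMIs of Esm1, Angpt2 and Pgf, which mark sprouting vessels (angiogenic).

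Each library was the only one of its group. The library labelled CKO+RI came from a Sfrp2ΔCol1a2 host, in which Sfrp2, a secreted Wnt-binding protein, is removed by a recombinase under Col1a2 control, that is in fibroblasts and related cells, and the host had received radiation and an immune checkpoint inhibitor. The Flox+RI library came from a Sfrp2 fl/fl host, which carries the floxed gene without the recombinase, after the same pair of treatments. The Flox+ICI library came from a Sfrp2 fl/fl host after the checkpoint inhibitor alone. All hosts carried tumours of LLC1-sgLkb1, a derivative of the Lewis lung carcinoma line with LKB1 knocked down per the labels. These cells went into the lung through the tail vein and, after 3 weeks, under the skin on the side that was irradiated. The labels name the tissue as tumour; the lesion sampled, the number of mice pooled and their age are not stated in them.

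Hpgd encodes 15-hydroxyprostaglandin dehydrogenase, which inactivates prostaglandin E2 and related lipids after the transporter Slco2a1 has carried them into the cell. The lung clears circulating prostaglandins in this way, and its capillary endothelium is rich in both proteins. Mouse lung capillaries hold a general type (Gpihbp1, Ptprb, Kit), which keeps vessels repaired and controls tone, and aerocytes, which face the air spaces and serve gas exchange. In this endothelium BMP ligands act through the receptors Bmpr2 and Acvrl1 with the co-receptor Eng, and Id genes, Smad6 and Smad7 are their usual targets.

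The promoters of the gene that chose the barcodes and of the transporter that feeds its enzyme are shown first, since Slco2a1 is followed through every comparison below. The windows run from 250 bases before to 50 bases after the RefSeq start (GRCm38.p6, plus strand, chr8:56294302-56294601 for Hpgd and chr9:103008237-103008536 for Slco2a1), with matches to the searched motifs in capitals.
Hpgd: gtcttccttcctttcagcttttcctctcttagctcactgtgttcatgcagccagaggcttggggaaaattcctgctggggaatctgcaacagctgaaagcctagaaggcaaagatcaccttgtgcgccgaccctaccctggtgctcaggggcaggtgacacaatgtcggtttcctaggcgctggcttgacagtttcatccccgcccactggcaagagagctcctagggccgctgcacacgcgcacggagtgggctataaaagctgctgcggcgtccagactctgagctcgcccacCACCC
Slco2a1: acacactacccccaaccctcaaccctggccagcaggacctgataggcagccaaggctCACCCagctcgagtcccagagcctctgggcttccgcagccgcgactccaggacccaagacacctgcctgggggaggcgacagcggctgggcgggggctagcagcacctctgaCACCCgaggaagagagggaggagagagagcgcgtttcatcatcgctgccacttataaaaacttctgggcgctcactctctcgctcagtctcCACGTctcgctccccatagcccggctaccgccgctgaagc
Both strands were searched for the forkhead motif TAAACA, the GATA factor motif AGATAA, the Krüppel-like factor motif CACCC, the ETS factor motif CCGGAA and the hypoxia response motif ACGTG. The Hpgd window held 1 CACCC, at position 296 of 300, and Slco2a1 held CACCC at positions 58 and 170 and the reverse form CACGT at 261. Among 32544 promoter windows of that length the Krüppel-like motif occurred in 57.7%, the hypoxia response motif in 19.7%, the ETS motif in 15%, the forkhead motif in 13.4% and the GATA motif in 11.2%. These matches describe the letters only.

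Depth differed between and within libraries. The library labelled CKO+RI held 161250286 UMIs in all, Flox+RI held 101840883 and Flox+ICI held 75543561. The Hpgd-positive barcodes had a median of 1635, 3785.5 and 1597 UMIs in that order, against 14467.5, 2923 and 3254.5 over all filtered barcodes, so in the library labelled CKO+RI they were far shallower than the rest. Ramp2, an endothelial receptor component that the choice did not use, had a UMI in 87.8%, 87.5% and 95.1% of the Hpgd-positive barcodes, against 9.30%, 5.77% and 5.50% of T cell barcodes with medians of 3397.5, 1959.5 and 2163 UMIs. Sfrp2 was too low in every library to check the host label. Over all barcodes it stood at 0.286 CPM (counts per 1000000 UMIs of the summed set) in the library labelled CKO+RI. That value lay between those of the floxed hosts, 0.119 CPM in Flox+RI and 0.319 CPM in Flox+ICI. Among Hpgd-positive barcodes Sfrp2 had 4 UMIs in the first of these libraries and none in the others. Counts of transcript ends beyond the floxed exons would leave the deletion unchecked. Doublet scoring marked 1, 3 and 27 of the Hpgd-positive barcodes in the same order. The libraries shared 65 to 71 barcode sequences with another library, 3 of them Hpgd-positive. All intervals below are exact at the 95% level and reflect counting error alone. The limit given for a count of 0 is instead 3 counts of the total, and it refers to barcodes with a UMI, not to cells that express the gene.

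Hpgd-positive endothelium was scarce in the Flox+RI library and common in the other two. It made up 1.54% (1.29 to 1.81) of the filtered barcodes of the library labelled CKO+RI, 139 of 9036. The Flox+RI library held 8 such barcodes of 13073, or 0.0612% (0.0264 to 0.121). In Flox+ICI they were 288 of 10692, or 2.69% (2.39 to 3.02). Of the endothelial barcodes alone they were 48.4% (42.5 to 54.4), 5.06% (2.21 to 9.73) and 52.4% (48.1 to 56.6) in the same order, so the Flox+RI interval overlapped neither of the others. With 1 library per group these shares have no replicate check, and loss of such cells cannot be told apart from a different sampled region or from less Hpgd RNA per cell.

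Detection of Hpgd itself followed the same order. A UMI was found in 57.8% of 287 endothelial barcodes in the library labelled CKO+RI (median depth 1800 UMIs), in 10.8% of 158 in Flox+RI (4279 UMIs) and in 71.5% of 550 in Flox+ICI (1748.5 UMIs). T cell barcodes, taken as background, held one in 2.09% of 430, in 0 of 260, which at 3 counts allows up to 1.15%, and in 1.38% of 436 barcodes. Neutrophil barcodes held one in 3.03% of 1256, 0.193% of 1035 and 3.34% of 2543, a higher share than T cell barcodes in each library. After each barcode was thinned to 1000 UMIs, which left 228, 147 and 425 endothelial barcodes, the shares were 48.2% (41.6 to 54.9), 2.72% (0.746 to 6.82) and 63.1% (58.3 to 67.7). The low share in Flox+RI was thus also found at equal depth, and its endothelial barcodes had the highest median depth of the 3 libraries.

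**Figure D1:**
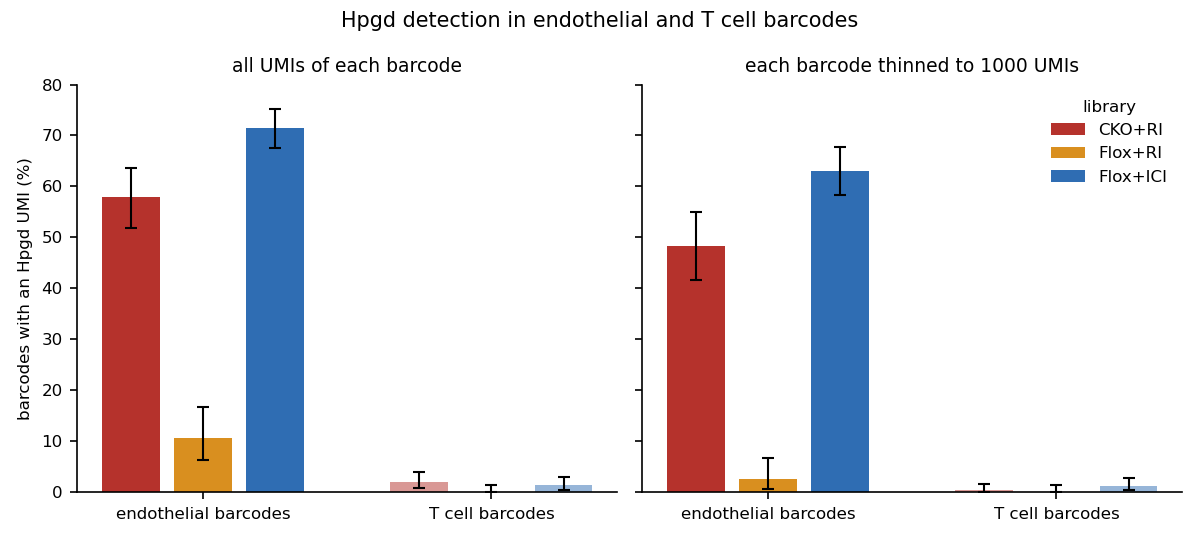
Share of barcodes with at least 1 Hpgd UMI (%), among endothelial barcodes (solid) and T cell barcodes (pale) of each library, on all UMIs (left) and after thinning to 1000 UMIs (right). Bars start at 0 and error bars are exact 95% binomial intervals; the endothelial share was 57.8%, 10.8% and 71.5% on all UMIs.

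The Hpgd-positive barcodes carried a median of 3, 1 and 4 Hpgd UMIs in the libraries labelled CKO+RI, Flox+RI and Flox+ICI, with highest counts of 28, 3 and 33. Just inside the limit, 33, 5 and 55 of them held a single Hpgd UMI, and just outside it stood the 95, 81 and 135 Hpgd-negative barcodes. At the capillary limit, 14, 0 and 34 held 1 UMI of Car4 and Ednrb, while 6, 1 and 21 barcodes with 2 such UMIs fell outside. Hpgd was not particular to the chosen barcodes: it was also found in 26 of 41, 5 of 26 and 99 of 114 Car4/Ednrb barcodes. Its summed level there was 808, 158 and 2725 CPM, against 2441, 404 and 2200 CPM in the Hpgd-positive barcodes.

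Most Hpgd-positive barcodes had the general capillary pattern, with small fractions that held vein or artery genes and no UMI of the lymphatic genes Ccl21a, Mmrn1 and Reln. Gpihbp1, which anchors lipoprotein lipase on capillary cells, had a UMI in 78.4% of them in the library labelled CKO+RI, 75.0% of those in Flox+RI and 76.4% of those in Flox+ICI, against 3.02%, 1.92% and 1.83% of T cell barcodes. Vwf, the clotting factor of larger vessels, was found in 58.3%, 62.5% and 39.9% of them and in 1.40%, 1.54% and 0.688% of T cell barcodes. Slc6a2, the noradrenaline transporter and a marker of lung veins, was found in 10, 1 and 17 barcodes, all of which also held Vwf. Its UMIs were concentrated in few barcodes: the top 7 held 94.6% of them in the library labelled CKO+RI and the top 14 held 95.5% in Flox+ICI, where Gpihbp1 had 21.3% and 23.1% in as many. An arterial UMI of Gja5, Bmx or Dkk2 occurred in 7, 0 and 11 barcodes. The artery list of 14 genes, Mgp among them, summed to 1968, 942 and 2016 CPM. The vein list of 12 genes, Vwf among them, summed to 1887, 1009 and 1295 CPM. None of the 139, 8 or 288 barcodes held Ccl21a, Mmrn1 or Reln, which at 3 counts allows a share of barcodes with a UMI of up to 2.16%, 37.5% and 1.04%. Of the other lymphatic genes, Lyve1 had a UMI in 54.0%, 75.0% and 67.4% of them, against 0.698%, 0.769% and 0.917% of T cell barcodes, and the lymphatic regulator Prox1 had 1, 0 and 2 UMIs in all. The general capillary pattern was not particular to the Hpgd-positive barcodes. Its list of 12 genes, Hpgd included, summed to 10824, 5719 and 9102 CPM in them. In the Car4/Ednrb barcodes the same list summed to 8018, 7425 and 9303 CPM.

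Compared with the Hpgd-negative barcodes, the Hpgd-positive ones were higher in endothelial identity genes as a whole. They were also higher in capillary identity, BMP signalling, the regulators of lung endothelium and prostaglandin uptake, and lower in basement membrane and cell cycle genes. The test used UMIs summed per library and set, the libraries labelled CKO+RI and Flox+ICI, which held at least 10 barcodes of both sets, and edgeR's quasi-likelihood test with the library as block and Benjamini-Hochberg adjustment. It left 1 residual degree of freedom, so the spread between libraries was estimated from few data and shared across genes. Of 8023 genes tested, 855 were higher (10.7%) and 712 lower (8.87%) at an adjusted p under 0.05. RNA of other cells differed between the sets. The macrophage list summed to 1440, 2826 and 2646 CPM in the Hpgd-positive barcodes, against 1925, 6152 and 6450 CPM in the Hpgd-negative ones (libraries labelled CKO+RI, Flox+RI and Flox+ICI). Other lists went the other way: the erythroid list summed to 10280, 31020 and 577 CPM against 447, 37.9 and 73.1 CPM, and the alveolar type 2 list to 2923, 303 and 4938 CPM against 486, 287 and 2666 CPM, with 4 of 4 and 4 of 7 tested genes higher. A single barcode held 1437 of the 1753 Hbb-bs UMIs of the library labelled CKO+RI, 517 of 518 in Flox+RI and 115 of 170 in Flox+ICI. The part of this RNA in the differences was not tested. Endothelial RNA differed as well. The endothelial identity list held 27 genes, 22 of them not used in the choice. It summed to 21644, 18470.5 and 19509.5 CPM in the Hpgd-positive barcodes, in the same order of libraries. In the Hpgd-negative ones it summed to 8039, 8207 and 5374 CPM. How far the differences of other endothelial lists go beyond this one was not tested. The comparison was repeated on barcodes with at least 3 of the 5 endothelial genes in both sets, which called 335 higher (6.7%) and 208 lower (4.16%) of 5003 genes. Of these, 308 and 133 were also called on the same side in the full comparison, and 4 genes were called on opposite sides. Median depth was 1635, 3785.5 and 1597 UMIs in the Hpgd-positive against 1871, 2847 and 2833 UMIs in the Hpgd-negative barcodes, and with each barcode thinned to 1000 UMIs 203 genes were higher and 112 lower of 2365.

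General capillary genes were higher in the Hpgd-positive barcodes. Of 11 listed genes besides Hpgd, 10 could be tested and all 10 were called higher, with a median log2 fold change of 1.85 against -0.03 over all genes tested; with at least 3 endothelial genes, 6 of 10 were higher with a median of 0.94. Tmem100, a membrane protein of the BMP pathway that is typical of lung endothelium, stood at 1250 CPM against 123 CPM in the library labelled CKO+RI, 471 against 54.1 CPM in Flox+RI and 970 against 58.4 CPM in Flox+ICI. Its log2 fold change was 3.69 ± 0.28 (SE, adjusted p = 9.2e-08), and 2.92 with at least 3 endothelial genes. Lpl, the lipase that Gpihbp1 carries to the vessel wall, stood at 572 against 56.3 CPM, 370 against 125 CPM and 659 against 65.7 CPM in the same order, with a log2 fold change of 3.33 ± 0.28 (adjusted p = 2.6e-07). Both genes were higher in each of the 3 libraries. Gpihbp1 rose less, with 1667 against 506 CPM in the library labelled CKO+RI and 1281 against 345 CPM in Flox+ICI (log2 1.80 ± 0.23, adjusted p = 1.4e-05), while the 8 Flox+RI barcodes stood below the Hpgd-negative ones there, at 1009 against 1310 CPM. Its difference shrank to 0.77 with at least 3 endothelial genes. Kit, Plvap, Cd93 and Hilpda were called in the full comparison with log2 values of 1.47, 1.63, 1.77 and 1.20, and none of these 4 was called at the stricter gate.

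Prostaglandin handling other than Hpgd was represented by few genes. Of 21 further listed genes 9 could be tested; Slco2a1 and Ptgs1 were higher, Pla2g4a and Ptges2 lower, and the median was -0.39. Slco2a1 stood at 1194 against 258 CPM in the library labelled CKO+RI, 942 against 179 CPM in Flox+RI and 912 against 169 CPM in Flox+ICI. All 3 libraries gave the same side, with a log2 fold change of 2.32 ± 0.24 (adjusted p = 2.3e-06) and 1.40 at the stricter gate. Ptgs1, the constitutive cyclooxygenase that starts prostaglandin synthesis, had 152 against 58.8 CPM in the library labelled CKO+RI and 139 against 38.0 CPM in Flox+ICI, with no UMI against 12 UMIs in Flox+RI (log2 1.64 ± 0.30, adjusted p = 5.9e-04). Ptges2, a prostaglandin E synthase, and Pla2g4a, the phospholipase that frees arachidonic acid, had log2 values of -1.76 ± 0.59 and -1.60 ± 0.52 and were too low to be tested at the stricter gate. Both calls were weak: Ptges2 was called in 2 of 5 alternatives (adjusted p 0.034 to 0.16) and Pla2g4a in 2 of 7 (0.035 to 0.15).

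Genes of BMP and TGF-beta signalling were higher along the pathway. All 19 listed genes were tested, 13 were higher and none lower, with a median log2 fold change of 1.83; at the stricter gate 11 of 18 were higher and 1, the BMP signal transducer Smad1, was lower, with a median of 1.42. Bmpr2, the type II receptor mutated in heritable pulmonary hypertension, stood at 1701 against 384 CPM in the library labelled CKO+RI, 841 against 189 CPM in Flox+RI and 1197 against 188 CPM in Flox+ICI (log2 2.40 ± 0.24, adjusted p = 1.6e-06). The type I receptor Acvrl1 stood at 948 against 166 CPM, 538 against 173 CPM and 834 against 83.3 CPM in the same order (log2 2.91 ± 0.28, adjusted p = 8.8e-07). Both receptors were higher in every library. The ligand Bmp6 had 743 against 161 CPM, 303 against 46.0 CPM and 326 against 16.1 CPM (log2 3.02 ± 0.37, adjusted p = 1.0e-05). The co-receptor Eng and the targets Smad6, Smad7, Id1 and Id3 had log2 values of 2.12, 2.51, 2.0, 2.62 and 1.90, and all 5 were also called at the stricter gate.

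Regulators of lung endothelium were higher, 8 of 9 tested genes with a median log2 of 2.66 and, at the stricter gate, 6 of 9 with 1.62. Epas1, the hypoxia-inducible factor of endothelial cells, stood at 2774 against 422 CPM in the library labelled CKO+RI, 1379 against 295 CPM in Flox+RI and 2423 against 259 CPM in Flox+ICI (log2 2.97 ± 0.23, adjusted p = 1.1e-07). Foxf1, a forkhead factor needed for lung capillary formation, had 258 against 56.3 CPM, 101 against 62.3 CPM and 516 against 62.8 CPM (log2 2.68 ± 0.30, adjusted p = 3.8e-06). Klf4, a flow-responsive factor, had 392 against 58.8 CPM, 572 against 114 CPM and 1273 against 171 CPM (log2 2.83 ± 0.27, adjusted p = 8.8e-07). The related Klf2 and the endothelial factor Gata2 had log2 values of 2.19 and 2.66 and were called at both gates. Foxp1 and Tbx3, at 1.0 and 1.63, were not called at the stricter gate.

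Genes that set vessel tone and clotting were mostly higher. Of 16 tested vasoactive and clotting genes 11 were higher and 1, the protein C receptor Procr, was lower; at the stricter gate 8 of 15 were higher. Ramp2, which with Calcrl forms the adrenomedullin receptor, stood at 2960 against 501 CPM in the library labelled CKO+RI, 1480 against 525 CPM in Flox+RI and 2432 against 507 CPM in Flox+ICI (log2 2.41 ± 0.22, adjusted p = 7.5e-07). Edn1, the precursor of endothelin, had 115 against 28.1 CPM, 505 against 135 CPM and 264 against 19.0 CPM (log2 3.08 ± 0.38, adjusted p = 1.1e-05). The natriuretic peptide clearance receptor Npr3, thrombomodulin (Thbd) and the angiotensin converting enzyme Ace had log2 values of 3.18, 2.67 and 2.39. Among ligands, the semaphorin Sema3c stood at 855 against 105 CPM, 236 against 35.2 CPM and 689 against 45.3 CPM (log2 3.46 ± 0.30, adjusted p = 2.9e-07), and the chemokine Cxcl12 had a log2 of 3.10. Of 18 ligands tested 8 were higher and none lower; at the stricter gate 5 of 16 were higher and Igfbp7 and Pdgfa lower.

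Antigen presentation genes were higher with a smaller difference. Of 7 MHC class II genes 6 were higher, with a median log2 of 1.22, and 4 of 6 at the stricter gate. H2-Ab1, a class II chain, had 373 against 138 CPM in the library labelled CKO+RI and 651 against 191 CPM in Flox+ICI (log2 1.61 ± 0.26, adjusted p = 2.0e-04), while Flox+RI had 7 UMIs against 109, or 236 against 295 CPM. Of 29 class I and interferon gamma genes 15 were higher with a median of 0.87, but 2 of 28 at the stricter gate with 0.50. The interferon-induced chemokines Cxcl9 and Cxcl10 were not called: Cxcl9 had 9.33 against 97.2 CPM in the library labelled CKO+RI and 120 against 68.7 CPM in Flox+ICI, so the libraries lay on opposite sides.

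Genes of proliferation and matrix were lower in the Hpgd-positive barcodes, and genes of the lymphatic list lay on both sides. None of 17 tested cell cycle genes was higher and 9 were lower, with a median log2 of -1.18. Top2a, a topoisomerase of dividing cells, had 43.5 against 199 CPM in the library labelled CKO+RI, 33.6 against 103 CPM in Flox+RI and 79.8 against 205 CPM in Flox+ICI (log2 -1.67 ± 0.29, adjusted p = 4.2e-04). Top2a was no longer called at the stricter gate, where Birc5, Cdk1 and Ube2c were the 3 of 9 still lower. Ube2c stood at 59.1, 0 and 34.4 CPM in Hpgd-positive barcodes and at 217, 201 and 140 CPM over all barcodes of the libraries. Of 12 basement membrane genes 4 were lower, and 8 of 11 at the stricter gate, none higher in either. The proteoglycan Hspg2 had 68.4 against 161 CPM, 67.3 against 149 CPM and 31.7 against 145 CPM (log2 -1.74 ± 0.31, adjusted p = 5.0e-04). Over all barcodes Hspg2 stood at 170, 107 and 143 CPM, so the Hpgd-negative values were not far from those of the whole libraries. The part of RNA of other cells, tumour cells included, in the proliferation and matrix differences was not tested. Collagen IV, the main basement membrane collagen, differed between libraries: Col4a1 had 588 against 974 CPM in the library labelled CKO+RI and 676 against 560 CPM in Flox+ICI, was not called (log2 -0.22 ± 0.26), and reached -1.24 with a call at the stricter gate. Cdh13, a cadherin that binds adiponectin, had 49.8 against 494 CPM, none against 449 CPM and 22.0 against 121 CPM (log2 -2.90 ± 0.32, adjusted p = 3.2e-06). Of 6 lymphatic genes tested Ccl21a, Mmrn1 and Reln were lower and Lyve1 and Flt4 higher. Lyve1, a hyaluronan receptor, stood at 827 against 299 CPM in the library labelled CKO+RI, 875 against 549 CPM in Flox+RI and 1061 against 333 CPM in Flox+ICI (log2 1.57 ± 0.24, adjusted p = 1.0e-04) and was not called at the stricter gate (9 of 12 alternatives called it). With Lyve1 included, the list summed to 902, 942 and 1190 CPM against 706, 734 and 937 CPM. The lymphatic chemokine Ccl21a had no UMI in Hpgd-positive barcodes against 62 and 265 UMIs in the Hpgd-negative ones of the libraries labelled CKO+RI and Flox+ICI, at least 17.0-fold and 93.8-fold lower against a floor of 3 counts per library.

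By size of the difference, the genes furthest above included Cd24a, Mfap2, Rasgef1a, Tmem100, Ncald, Sox5, Slc16a9, Sema3c and Wfdc1, with log2 values between 3.38 and 4.05. Cd24a, a small surface glycoprotein, had 96.4 against 7.67 CPM in the library labelled CKO+RI, 101 against 32.5 CPM in Flox+RI and 197 against 10.2 CPM in Flox+ICI, with a log2 of 4.05 ± 0.40 (adjusted p = 1.2e-06). The vein gene Slc6a2 reached 4.40 ± 0.47 (adjusted p = 2.3e-06), from 56 and 66 UMIs against 5 and 1. The artery genes Hey1 and Gja4 had log2 values of 2.93 and 2.14 and were called at both gates. The 10 furthest below were Rrm2, Cdh13, Rnf24, D5Ertd615e, Gpnmb, Ccl6, Slc38a1, Bok, Tiam2 and Gsta4, between -2.94 and -2.43. Of these, Gpnmb and Ccl6, which are high in macrophages, had -0.26 and 0.66 at the stricter gate and were not called there. Macrophage genes turned with that gate: 8 of 12 were lower in the full comparison and 3 of 5 higher at the stricter one, with Lyz2 at -0.75 and 2.13, C1qb at -1.07 and 1.37 and Tyrobp at -1.39 and 1.97. The alveolar type 2 gene Sftpc was higher at both gates, at 1.72 and 3.24. A single barcode held 468 of the 720 Sftpc UMIs of the library labelled CKO+RI, and another held 719 of 2782 in Flox+ICI, and a Sftpc UMI was found in 71.9% and 63.9% of Hpgd-positive and 74.7% and 70.2% of T cell barcodes. The part of such mixed RNA in the other differences was not tested beyond the stricter gate.

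**Figure D2:**
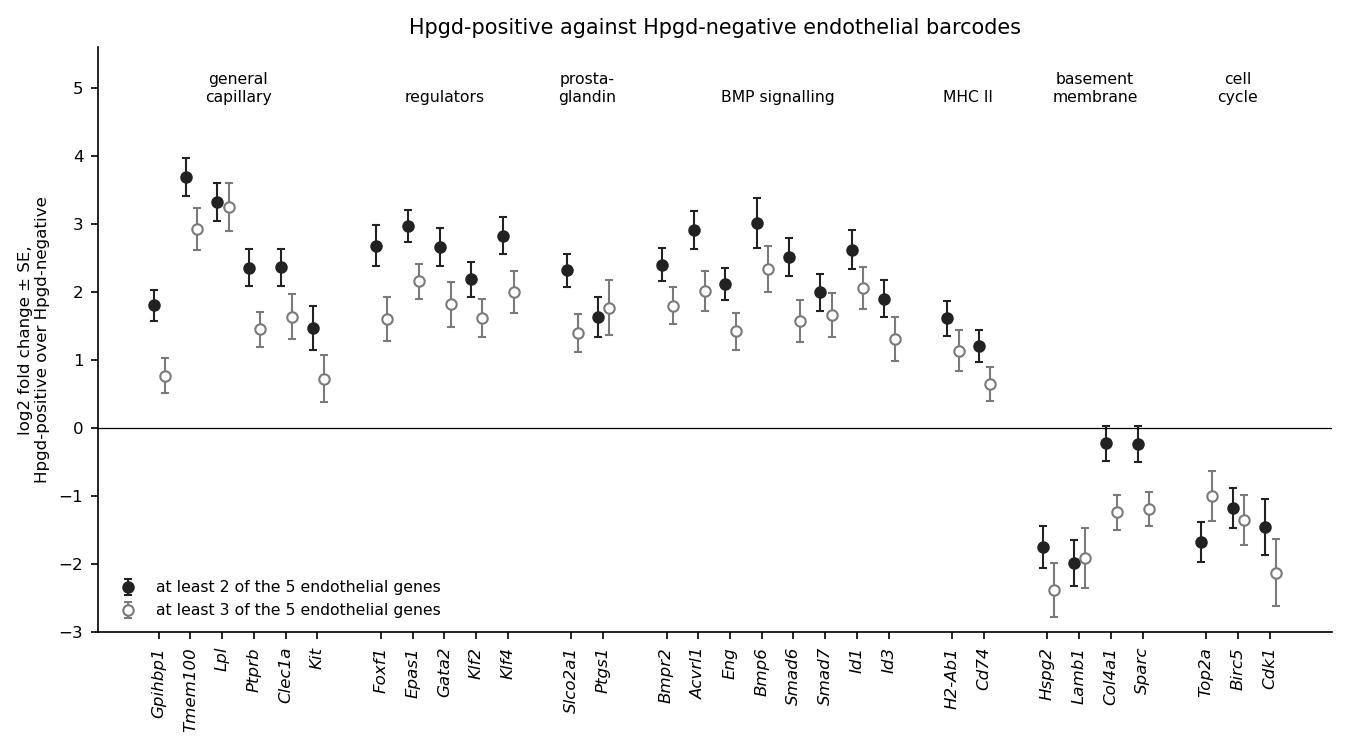
Log2 fold change (± SE) of Hpgd-positive over Hpgd-negative endothelial barcodes in edgeR's quasi-likelihood fit for named genes, grouped by list. Filled points need at least 2 of the 5 endothelial genes and open points at least 3; the BMP genes stay between 1.30 and 3.02, while Col4a1 and Sparc go below -1 at the stricter gate only.

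Against the Car4/Ednrb barcodes the difference was narrow, and most of the tested aerocyte genes were among those lower. The aerocyte genes Car4 and Ednrb chose those barcodes, so lower levels of other aerocyte genes are no independent result. Of 5695 genes tested, 29 were higher (0.509%) and 54 lower (0.948%), and at the stricter gate 14 were higher (0.269%) and 38 lower (0.73%) of 5204. Of 8 aerocyte genes tested besides Car4 and Ednrb 7 were lower, with a median log2 of -2.69 against 0.00 over all genes. Igfbp7, a secreted binding protein of growth factors, stood at 193 against 3020 CPM in the library labelled CKO+RI, 135 against 3269 CPM in Flox+RI and 308 against 1893 CPM in Flox+ICI (log2 -3.29 ± 0.34, adjusted p = 3.7e-07). Fibin had 5 against 28 UMIs, none against 7 and 24 against 231 UMIs, or 15.5 against 134 CPM, none against 39.5 CPM and 33.0 against 788 CPM (log2 -4.20 ± 0.42, adjusted p = 2.0e-07). Emp2, a membrane protein, and Kdr, the main VEGF receptor, had log2 values of -3.09 and -1.88. These genes were lower in every library, apart from the few Flox+RI UMIs. Without the library as block no gene was called on either side, with 242 genes at an unadjusted p under 0.05, while DESeq2 called 2 higher and 8 lower, and RLE size factors in place of TMM gave 6 higher and 21 lower.

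Among the genes higher than in Car4/Ednrb barcodes were genes of veins and larger vessels and of alveolar type 2 cells. Of 7 vein genes tested 3 were higher and none lower, with a median log2 of 1.04. Vwf stood at 1107 against 454 CPM in the library labelled CKO+RI, 673 against 559 CPM in Flox+RI and 546 against 225 CPM in Flox+ICI (log2 1.25 ± 0.30, adjusted p = 0.024). Vcam1, an adhesion molecule for leukocytes, had 32 UMIs against none, 2 against none and 57 against 5, which is at least 6.94-fold higher in the library labelled CKO+RI against a floor of 3 counts and 4.60-fold (1.86 to 14.7) in Flox+ICI (adjusted p = 2.9e-03). Slc6a2 had 56 against none, 2 against none and 66 against 12 UMIs (adjusted p = 0.020), and this call was lost at the stricter gate and kept in 3 of 11 alternatives, whose adjusted p ran between 8.1e-05 and 1.0. Mgp, an inhibitor of vessel calcification, had 317 against 43.0 CPM in the library labelled CKO+RI and 784 against 211 CPM in Flox+ICI, with none against 84.7 CPM in Flox+RI (log2 2.21 ± 0.35, adjusted p = 2.8e-04). The top 7 and 14 Hpgd-positive barcodes held 93.1% and 86.3% of the Mgp UMIs and 100.0% and 91.2% of those of Vcam1, so these differences came from a minority of barcodes. Mgp was also found in 11.4% and 7.80% of T cell barcodes, against 10.1% and 17.7% of Hpgd-positive ones. Of 6 alveolar type 2 genes tested 5 were higher, with Sftpc at a log2 of 2.29. Among genes with at least 50 UMIs in the higher set and a UMI in at least 10% of its barcodes, the 10 furthest above were Sftpc, Mgp, Nmt2, Hmga2, Pcsk5, Sftpa1, Wfdc2, Lcn2, Samd5 and Vegfc, between 1.66 and 2.29. Nmt2, Hmga2, Lcn2 and Samd5 were not called at the stricter gate, where Hmga2 fell to 0.47. Hmga2 stood at 407 and 230 CPM in Hpgd-positive barcodes, against 1257 and 1039 CPM over all barcodes (libraries labelled CKO+RI and Flox+ICI). Nmt2, Wfdc2 and Lcn2 also stood below their levels over all barcodes, while Sftpc, Mgp, Sftpa1, Samd5 and Vegfc stood above. Whether RNA of other cells, tumour cells included, adds to these differences was not tested. The 10 furthest below were Fibin, Igfbp7, Emp2, Rgs6, Pde8b, Tbx3os1, Lmntd1, Ptp4a3, Tbx2 and Pmp22, between -4.20 and -2.25.

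The BMP and prostaglandin genes were not called against the Car4/Ednrb barcodes, none of 18 and none of 5, with median log2 values of 0.03 and 0.59. Their levels crossed between libraries. Slco2a1 stood at 1194 against 626 CPM in the library labelled CKO+RI, a ratio of 1.91 (1.56 to 2.34), and at 912 against 1292 CPM in Flox+ICI, a ratio of 0.706 (0.621 to 0.803). Tmem100 had ratios of 1.55 (1.29 to 1.86) and 0.650 (0.576 to 0.733), and Bmpr2 of 1.88 (1.59 to 2.23) and 0.768 (0.685 to 0.862). Epas1, Acvrl1, Eng, Calcrl and Ramp2 lay on the same 2 sides. Sparc, a matrix protein on the aerocyte list, crossed the other way, with 463 against 2743 CPM in the library labelled CKO+RI and 958 against 658 CPM in Flox+ICI. The difference between libraries was not tested.

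**Figure D3:**
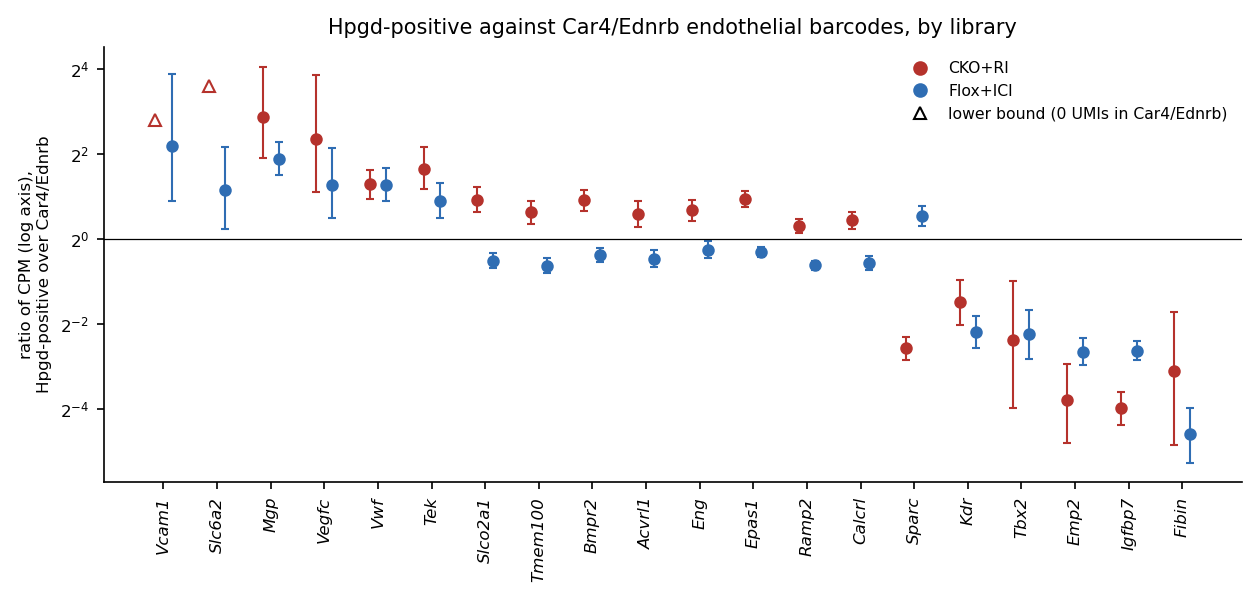
Ratio of CPM of Hpgd-positive over Car4/Ednrb endothelial barcodes (log axis) in the libraries labelled CKO+RI (red) and Flox+ICI (blue), with exact 95% intervals of counting error; open triangles are lower bounds against 0 UMIs, at a floor of 3 counts. Vein genes lie above 1 and aerocyte genes other than Sparc below 1 in both libraries. The 8 genes from Slco2a1 to Calcrl lie above 1 in the library labelled CKO+RI and below 1 in Flox+ICI, and Sparc the other way.

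Set against the angiogenic barcodes, the Hpgd-positive ones were lower in basement membrane and sprouting genes and higher in BMP signalling. The angiogenic sets were small, 12 and 13 barcodes in the libraries labelled CKO+RI and Flox+ICI, and 43 in Flox+RI. Of 4501 genes tested 152 were higher (3.38%) and 135 lower (3.0%). At the stricter gate 162 were higher (4.16%) and 116 lower (2.98%) of 3890. Of 12 basement membrane genes 9 were lower and none higher, with a median log2 of -2.08 against 0.03 over all genes. Col4a1 stood at 588 against 2701 CPM in the library labelled CKO+RI, 1379 against 2934 CPM in Flox+RI and 676 against 1732 CPM in Flox+ICI (log2 -1.75 ± 0.29, adjusted p = 8.2e-03). Igfbp3, a binding protein of insulin-like growth factors, had 3 against 56 UMIs, none against 161 and 10 against 38 (log2 -5.20 ± 0.45, adjusted p = 3.6e-04). Of 22 VEGF and sprouting genes 7 were lower, 4 of them matrix genes (Col4a1, Col4a2, Lama4 and Nid2), and 1, the angiopoietin receptor Tek, was higher; the tip cell ligand Apln had 1 against 11, 3 against 138 and 10 against 11 UMIs, or 3.11 against 131 CPM, 101 against 429 CPM and 13.8 against 105 CPM (log2 -3.51 ± 0.60, adjusted p = 9.1e-03). The angiogenic barcodes also held more lymphatic-list RNA in the libraries labelled CKO+RI and Flox+ICI but not in Flox+RI: the list summed to 902, 942 and 1190 CPM in Hpgd-positive barcodes, against 4553, 937 and 2507 CPM in angiogenic ones. Reln had no UMI against 24, 1 and 29 UMIs.

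Of 16 BMP and TGF-beta genes tested against the angiogenic barcodes 8 were higher and 1, Smad1, lower, with a median log2 of 1.43. Tmem100 stood at 1250 against 35.9 CPM in the library labelled CKO+RI, 471 against 9.33 CPM in Flox+RI and 970 against 230 CPM in Flox+ICI (log2 3.10 ± 0.54, adjusted p = 9.1e-03). Bmpr2 had 1701 against 131 CPM, 841 against 205 CPM and 1197 against 622 CPM (log2 2.08 ± 0.52, adjusted p = 0.040). Slco2a1 had 1194 against 59.8 CPM, 942 against 62.2 CPM and 912 against 411 CPM (log2 2.29 ± 0.56, adjusted p = 0.037). Each of these genes was higher in all 3 libraries, including Flox+RI with its 8 barcodes. H2-Ab1 and H2-Aa were the 2 of 6 MHC class II genes called higher, with log2 values of 1.82 and 1.57. By the same minimum of UMIs and barcodes, the genes furthest above included Trerf1, Slc24a4, Wfdc1, Rab27a, Bgn, Col3a1, Ptgs1, Sema5a and Atp2a3. Col3a1, a gene of the fibroblast list, stood at 199 and 105 CPM in Hpgd-positive barcodes of the libraries labelled CKO+RI and Flox+ICI. Over all barcodes it was higher, at 461 and 305 CPM, while Ptgs1 was lower there, at 66.7 and 59.7 CPM. The 10 furthest below were Reln, Igfbp3, Cdh13, Fscn1, Trp53i11, Inhbb, AA467197, Igfbp7, Hspg2 and Cavin3. Of the first group, Trerf1, Slc24a4 and Wfdc1 had no UMI in the angiogenic barcodes of either tested library and 20 and 76, 34 and 44, and 22 and 41 UMIs in the Hpgd-positive ones. With each barcode thinned to 1000 UMIs, 11 genes were called higher and 14 lower.

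**Figure D4:**
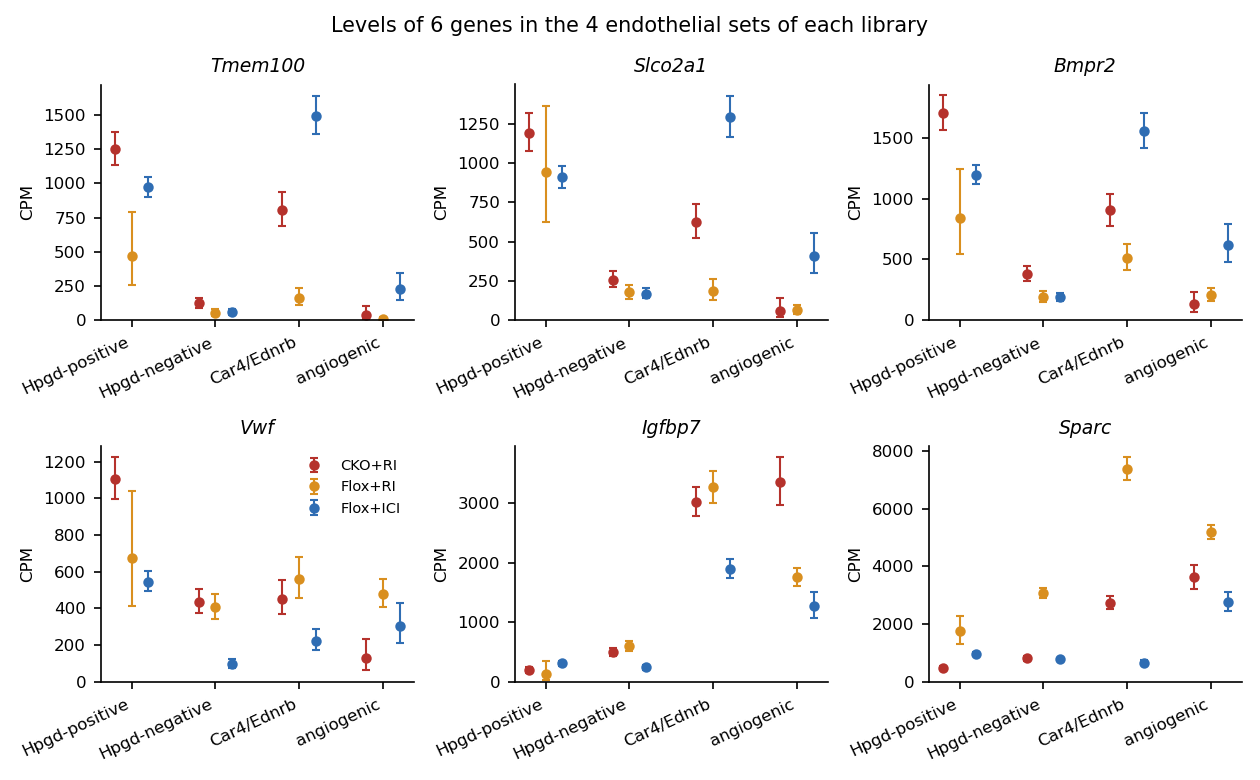
Level (CPM of summed UMIs) of 6 genes in the Hpgd-positive, Hpgd-negative, Car4/Ednrb and angiogenic endothelial barcodes of each library, with exact 95% Poisson intervals. Slco2a1 stands at 1194, 942 and 912 CPM in Hpgd-positive barcodes and Igfbp7 at 193, 135 and 308 CPM, far below the Car4/Ednrb barcodes.

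Within the Hpgd-positive barcodes, libraries could be compared only between the library labelled CKO+RI and Flox+ICI, since 8 barcodes in Flox+RI fell under the minimum of 20. These 2 libraries differ in host label and in radiation at once, so the effects of the host and of radiation cannot be told apart, and with 1 library each there is no test. Of 7408 genes with at least 20 UMIs in both together, 425 were past 2-fold higher (5.74%) and 831 past 2-fold lower (11.2%) in the library labelled CKO+RI. General capillary genes were slightly higher: the list had a median log2 ratio of 0.37, against 0.01 over all genes, with 7 of 10 intervals above 1 and 1 below. Kit was past 2-fold higher and Hilpda past 2-fold lower. Gpihbp1 stood at 1667 and 1281 CPM, a ratio of 1.30 (1.17 to 1.45), and Epas1 at 2774 and 2423 CPM, a ratio of 1.14 (1.05 to 1.24). Flox+RI had 1009 and 1379 CPM of these genes. The shift was not particular to general capillary genes. The artery, vein and endothelial identity lists had medians of 0.54, 0.36 and 0.26 between the libraries labelled CKO+RI and Flox+ICI. The aerocyte list had -1.04, with 5 of 7 genes past 2-fold lower and none higher, and the lymphatic list had -0.49 from 3 genes. A different mix of vessel types in the Hpgd-positive barcodes of these libraries was not tested.

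Immediate early genes were lower in the library labelled CKO+RI. Of 15 such genes, which respond quickly to stimulation, 8 were past 2-fold lower and none higher, with a median log2 ratio of -1.11; 12 intervals lay below 1. Fos stood at 199 CPM in the library labelled CKO+RI, 404 CPM in Flox+RI and 692 CPM in Flox+ICI, a ratio of 0.287 (0.218 to 0.373) between the first and the last. Egr1 had 149, 471 and 600 CPM, a ratio of 0.249 (0.181 to 0.336), and Jun 1396, 2557 and 2302 CPM, a ratio of 0.606 (0.545 to 0.673). The flow-responsive factors Klf4 and Klf2 were lower as well: Klf4 had 392, 572 and 1273 CPM, a ratio of 0.308 (0.253 to 0.371), and Klf2 a ratio of 0.486 (0.416 to 0.565). Cdkn1a, a p53 target that halts the cell cycle, had 585, 740 and 2140 CPM, a ratio of 0.273 (0.234 to 0.318). Of the 16 p53 targets 3 were past 2-fold lower and none higher, with a median of -0.32.

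MHC class II and interferon gamma genes lay in the same direction with smaller shifts of the lists, and type I interferon genes did not. Cd74, the class II chaperone, stood at 1160 CPM in the library labelled CKO+RI, 1514 CPM in Flox+RI and 2602 CPM in Flox+ICI, a ratio of 0.446 (0.398 to 0.498), the only 1 of 7 class II genes past 2-fold; 5 intervals lay below 1. H2-Ab1 had a ratio of 0.573 (0.465 to 0.702). The interferon regulatory factor Irf1 had 199, 437 and 680 CPM, a ratio of 0.293 (0.222 to 0.380), and 7 of 29 class I and interferon gamma genes were past 2-fold lower, none higher, with a median of -0.33. Of 14 type I interferon genes 1, Oas2, was past 2-fold higher and none lower, with a median of 0.18. The class I genes B2m and H2-K1 differed little, with ratios of 1.04 (0.934 to 1.15) and 0.753 (0.681 to 0.831). Over all barcodes of the libraries the class II list followed the same order, at 548, 654 and 1279 CPM, against 2282, 2321 and 4544 CPM in the Hpgd-positive barcodes.

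Higher in the library labelled CKO+RI were single genes of several lists, among them Smad6, Bmp6, Sox18 and Nrp1. Smad6 stood at 780 CPM in the library labelled CKO+RI, 236 CPM in Flox+RI and 326 CPM in Flox+ICI, a ratio of 2.39 (2.0 to 2.87), and Bmp6 at 743, 303 and 326 CPM, a ratio of 2.28 (1.90 to 2.74). With Bmp4 they were the 3 of 19 BMP and TGF-beta genes past 2-fold higher, 1 was past 2-fold lower, and the median was 0.19. Sox18, a transcription factor of vessel and lymphatic development, had 31, 1 and 7 UMIs, or 96.4, 33.6 and 9.63 CPM, a ratio of 10.01 (4.32 to 26.9), while the related Sox17 and Sox7 had 1.05 (0.685 to 1.60) and 1.37 (0.869 to 2.14). Nrp1, a co-receptor of VEGF and semaphorins, had 780, 101 and 299 CPM, a ratio of 2.61 (2.17 to 3.15). Ccl2, which attracts monocytes, had 255, 33.6 and 79.8 CPM, a ratio of 3.19 (2.25 to 4.55). By the lower bound of the ratio AY036118, Acvr1b, Rgs3, Efna1, Nfatc3 and Phkb were the other genes furthest above, with ratios between 4.12 and 6.28.

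The genes furthest below in the library labelled CKO+RI were Gpx3, Pde4c, Ifitm1, Apoe, Adamts9, Serping1, Limch1 and Hspb1. Apoe, the lipid carrier, stood at 289 CPM in the library labelled CKO+RI, 606 CPM in Flox+RI and 1536 CPM in Flox+ICI, a ratio of 0.188 (0.151 to 0.233), and at 624, 1879 and 2226 CPM over all barcodes. The protease Adamts9 had 118, 101 and 648 CPM, a ratio of 0.182 (0.127 to 0.254), and Hspb1, a small heat shock protein, 59.1, 303 and 344 CPM, a ratio of 0.172 (0.102 to 0.274). Adamts9 and Hspb1 had 4.499 and 12.1 CPM over all barcodes of the library labelled CKO+RI and 20.8 and 23.7 CPM in Flox+ICI. Pde4c, a cyclic AMP phosphodiesterase, had no UMI in the library labelled CKO+RI, 9 UMIs in Flox+RI and 55 UMIs in Flox+ICI, which is at least 8.11-fold lower against a floor of 3 counts. RNA of other cells moved with these differences: within the Hpgd-positive barcodes 9 of 10 macrophage genes were past 2-fold lower in the library labelled CKO+RI, 6 of 8 fibroblast genes were past 2-fold lower and 4 of 4 haemoglobin genes higher. The macrophage list summed to 1440, 2826 and 2646 CPM, the fibroblast list to 370, 33.6 and 765 CPM and the erythroid list, whose Hbb-bs UMIs lay mostly in 1 barcode per library as given above, to 10280, 31020 and 577 CPM. The T cell list of 9 genes had 5, 0 and 13 UMIs in all, with Cd3g and Cd8a at 0 in each library. The part of this RNA in the differences between libraries was not tested.

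**Figure D5:**
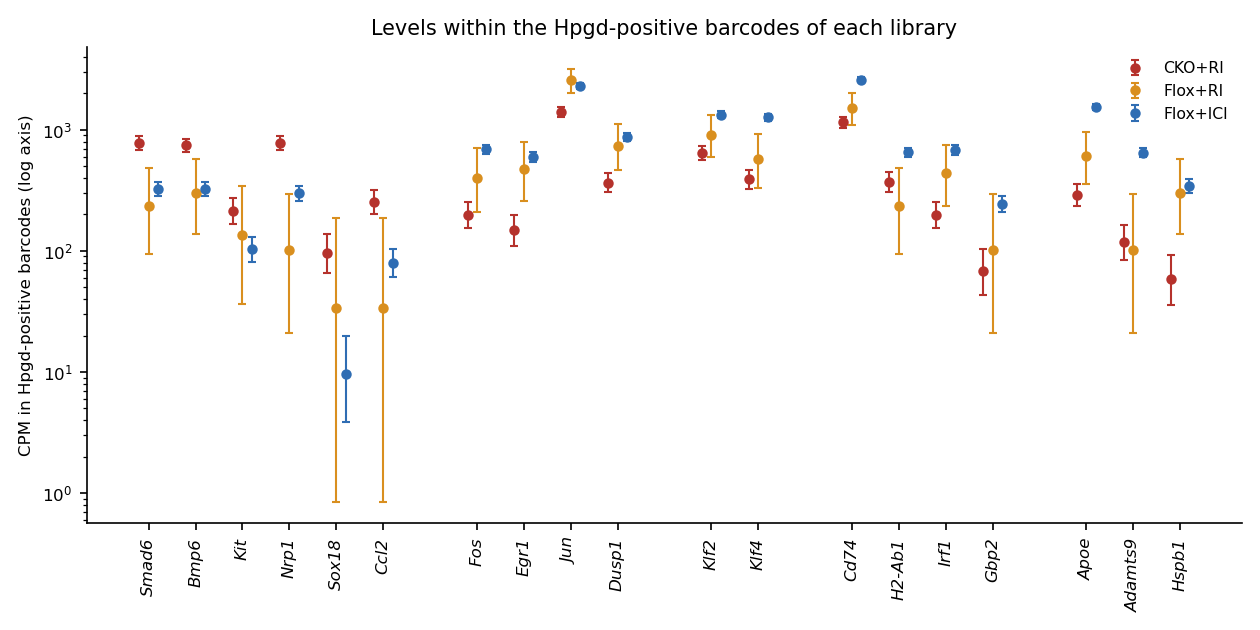
Level (CPM, log axis) of named genes within the Hpgd-positive barcodes of the libraries labelled CKO+RI, Flox+RI and Flox+ICI, with exact 95% Poisson intervals of counting error. Smad6, Bmp6 and Nrp1 are highest in the library labelled CKO+RI, and Fos, Egr1, Klf4, Irf1 and Apoe are highest in Flox+ICI; the wide Flox+RI intervals rest on 8 barcodes.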

How the data were processed

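The authors deposited 1 matrix of raw UMI counts per library, with 32285 genes, made with Cell Ranger 6.1.2 per the file headers; the submitters' processing notes name Cell Ranger 6.0, Seurat 5.0.3 and mm10, and no source used here names the gene annotation. Barcodes were filtered and chosen as described above. UMIs were summed per library and set, and sets were compared with edgeR 4.0.16 (R 4.3.3; TMM, filterByExpr, quasi-likelihood, library as block, Benjamini-Hochberg, threshold 0.05) over libraries with at least 10 barcodes in both sets. Depth per library and set is given above; it limits the precision of each value, and 1 library per group leaves the spread between mice unmeasured. The comparisons of libraries that involve Flox+RI were planned and not run because it held under 20 Hpgd-positive barcodes; the library labelled CKO+RI was set against Flox+ICI instead, a choice made after seeing the data. Ratios there carry exact conditional binomial 95% intervals, computed with scipy 1.17.1 and numpy 2.4.6. Doublets were scored with scanpy 1.11.5 (0.8% per 1000 barcodes) and kept. The pairing of sets comes from their shared library. Each SE of a log2 fold change was derived from the test, as the size of the change divided by the square root of the quasi-likelihood F.

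Besides listed genes, the genes named are drawn from the 10 genes furthest above and below among those past the threshold, on the same side in every tested library, with at least 50 UMIs in the higher set and a UMI in at least 10% of its barcodes. Between libraries they are drawn from the 8 furthest each way by the bound of the interval nearest to 1. Mitochondrial, ribosomal, haemoglobin, immunoglobulin and T cell receptor genes, Gm and Rik genes, Xist, Y-linked genes and the genes of the choice were left out of these ranks. Some genes that meet these rules are not reported here. Barcodes, gene lists and comparisons were chosen with earlier results of these data known. The fits were tested on simulated counts with 1 common dispersion and the same mean of a gene in each library. Changed genes were drawn from those above the median level, so the shares recovered do not cover genes of lower level. RNA of other cells was not simulated. Against the Hpgd-negative barcodes 43.0% of genes changed 2-fold and 99.0% of those changed 4-fold were recovered. Against the Car4/Ednrb barcodes the shares were 31.0% and 100.0%, and against the angiogenic barcodes 2.00% and 71.0%. False calls made up 5.33%, 4.38% and 0% of the calls in the same order of comparisons. Alternatives tried were other size factors, no filter, DESeq2 1.42.0, no block, stricter gates, thinning and doublet removal.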

Additional observations from a re-analysis of the deposited data

Results flagged for a closer look

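Genes were picked out here where the Hpgd-positive barcodes lay on opposite sides of the other set in the 2 tested libraries, each counting interval leaving out 1. The value is the ratio in the library labelled CKO+RI divided by the ratio in Flox+ICI, and the difference between the libraries was not tested. Against the Hpgd-negative barcodes the interferon-induced chemokines Cxcl9 and Cxcl10 had 0.0551 and 0.0403. The secreted and matrix genes Igfbp7, Sparc, Col4a1 and Col4a2 had 0.302, 0.458, 0.4996 and 0.524, each lower than in Hpgd-negative barcodes in the library labelled CKO+RI and higher in Flox+ICI.

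Against the Car4/Ednrb barcodes Sparc had 0.116. The prostaglandin transporter Slco2a1 had 2.70 and the BMP pathway genes Bmpr2, Tmem100, Acvrl1 and Eng had 2.45, 2.38, 2.06 and 1.90. Epas1, a hypoxia-inducible factor, had 2.37, and the adrenomedullin receptor genes Calcrl and Ramp2 had 1.996 and 1.91. These 8 genes were higher in Hpgd-positive than in Car4/Ednrb barcodes in the library labelled CKO+RI and lower in Flox+ICI. In the Car4/Ednrb barcodes of the library labelled CKO+RI the erythroid list summed to 44172 CPM, against 283 CPM in Flox+ICI, and the lymphatic list to 3593 CPM. Their part in these ratios was not tested.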

How the results depend on the processing

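Shares of filtered barcodes (libraries labelled CKO+RI, Flox+RI and Flox+ICI) were 1.17%, 0.0229% and 2.18% with at least 2 Hpgd UMIs and 3.56%, 0.141% and 4.06% with at least 1 Xist UMI. They were 2.07% and 4.67% in the first and last with other-cell markers at most 1% of UMIs, and 1.23% in the first after thinning. Of endothelial barcodes they were 36.9%, 1.90% and 42.4% with at least 2 Hpgd UMIs, and 59.3% in Flox+ICI after thinning. Counts of genes higher and lower than in Hpgd-negative barcodes were 504 and 291 without doublets, 88 and 42 with a Xist UMI, 335 and 208 with at least 3 endothelial genes, 203 and 112 thinned, 281 and 69 by DESeq2, and 184 and 48 with no replicate block. RLE size factors gave 342 lower, and 8 Flox+RI barcodes included gave 692 and 983, with a median over all genes of -0.18. Against Car4/Ednrb barcodes they were 5 and 19 at no more than 10% mitochondrial UMIs, 8 and 15 with a Xist UMI, 6 and 21 with RLE, 48 and 82 with no filter, 2 and 8 by DESeq2, 0 and 0 with no replicate block (242 genes at an unadjusted p under 0.05), and 5 and 18 with Flox+RI. Higher genes there were 10 with at least 2 Hpgd UMIs, 15 with other-cell markers limited and 14 with at least 3 endothelial genes. Against angiogenic barcodes they were 288 and 224 at 10% mitochondrial UMIs, 277 and 238 with other-cell markers limited, 11 and 14 thinned, 60 and 37 by DESeq2, 19 and 37 with no replicate block, and 261 and 203 with Flox+RI. Higher genes there were 270 with at least 2 Hpgd UMIs and 347 with no filter, where the median over all genes was 0.61. Between libraries, genes past 2-fold higher and lower were 211 and 410 of 3310 thinned and 119 and 345 of 4052 at 50 UMIs, and 650 higher with each barcode given the same weight. Without doublets they were 404 and 590, among fewer genes with enough UMIs, against 425 and 831 with doublets kept. Of the ratios of genes ranked furthest between libraries, 4 were marked as moved and 12 as the same without doublets. Thinning gave the same 4 and 12, as did equal weight of each barcode.

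Directions turned for Ccl6 (0.66), Lyz2 (2.13), C1qb (1.37) and Tyrobp (1.97) at the 3-gene gate, for Lyz2 (0.46) and, against Car4/Ednrb, Sftpa1 (-0.18) with other-cell markers limited, and for Hilpda (-0.13) without Flox+ICI, against 2.16 without the library labelled CKO+RI. Limits on other-cell markers and the 3-gene gate were chosen after seeing the data, as was the inclusion of Flox+RI. Leaving out either tested library left no residual degrees of freedom, so those are ratios with no test. The Xist setting could not be run against angiogenic barcodes, of which fewer than 10 were left, and the planned comparisons with Flox+RI were not run. The causes were not tested.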
